A study of Mus musculus with 3 samples.

Results

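The Kruppel-like factors are zinc-finger transcription factors, and 8 of their genes (Klf2, Klf3, Klf4, Klf6, Klf7, Klf9, Klf10 and Klf13) were followed here through the myeloid cells of the mouse brain. They were looked up in the count tables of the series as a list of names, chosen with earlier results of these data known. Counts of members called thus describe the list, and are no test of the family. All 8 were listed in each of the 3 tables. These have 11979 genes in common, and 14221 were listed in any. The cells were CD11b+ CD45+ brain cells, sorted after warm enzymatic digestion and density centrifugation, and read with a droplet kit that counts unique molecular identifiers (UMIs) at the 3′ end of transcripts. There were 2 libraries from adult wild type mice (WT 1 and WT 2) and 1 library from an MHC class II-deficient mouse that almost wholly lacked CD4 T cells, here called the deficient library. The labels give no allele for the deficiency, and no age for the deficient mouse, and it stood as the single sample of its group, so that genotype, animal and library cannot be told apart.

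Kruppel-like factors bind GC-rich and CACCC sequences in promoters through zinc fingers at their carboxy end, and differ in their amino ends, which recruit activators or repressors. In macrophages Klf2 and Klf4 are known as regulators that restrain or redirect inflammatory activation, while Klf6 is known to favour it. Several members are themselves rapidly induced genes, and the warm digestion of brain tissue is a known inducer of immediate early genes in microglia, the resident macrophages of the brain. The members were therefore read separately in microglia without and with immediate early transcripts.

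The promoters of the members whose level differed most between the libraries or states are shown first, as 250 bases before to 50 bases after the gene start (RefSeq, build GRCm38.p6), because the matches in them are referred to with the values. An entry was found for 7 of the 8 members, Klf10 being the other. Capitals mark matches, on either strand, to the MEF2 element, to the cyclic AMP response core TGACG (which also lies within the full element TGACGTCA, present in 1.79% of all mouse promoters of this length) and to the AP-1 site TGANTCA. Klf2 lies at chr8:72318812-72319111 on the plus strand, Klf3 at chr5:64803271-64803570 on the plus strand, Klf4 at chr4:55532426-55532725 on the minus strand and Klf6 at chr13:5861239-5861538 on the plus strand.
Klf2: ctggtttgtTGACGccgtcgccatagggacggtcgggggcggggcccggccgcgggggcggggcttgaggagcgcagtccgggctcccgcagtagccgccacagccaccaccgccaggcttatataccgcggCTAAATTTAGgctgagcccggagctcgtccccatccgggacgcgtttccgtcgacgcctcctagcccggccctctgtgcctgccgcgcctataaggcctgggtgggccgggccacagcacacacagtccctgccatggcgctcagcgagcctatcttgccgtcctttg
Klf3: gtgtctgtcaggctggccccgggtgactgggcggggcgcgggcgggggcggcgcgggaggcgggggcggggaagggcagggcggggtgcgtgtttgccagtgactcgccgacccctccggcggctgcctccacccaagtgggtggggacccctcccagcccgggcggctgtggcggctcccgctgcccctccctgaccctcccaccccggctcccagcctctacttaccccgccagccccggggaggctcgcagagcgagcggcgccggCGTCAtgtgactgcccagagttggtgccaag
Klf4: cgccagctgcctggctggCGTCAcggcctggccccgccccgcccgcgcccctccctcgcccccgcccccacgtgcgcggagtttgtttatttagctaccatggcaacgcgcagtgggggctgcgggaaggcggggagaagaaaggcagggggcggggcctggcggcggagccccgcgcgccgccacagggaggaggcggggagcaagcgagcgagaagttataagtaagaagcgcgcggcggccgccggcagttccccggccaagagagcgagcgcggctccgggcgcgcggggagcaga
Klf6: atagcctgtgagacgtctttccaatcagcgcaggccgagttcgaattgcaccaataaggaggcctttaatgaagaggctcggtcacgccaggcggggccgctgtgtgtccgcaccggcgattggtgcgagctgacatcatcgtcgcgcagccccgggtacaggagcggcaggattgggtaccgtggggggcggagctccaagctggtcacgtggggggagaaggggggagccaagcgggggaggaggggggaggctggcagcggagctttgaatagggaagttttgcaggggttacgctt
Among the 7 promoters, the MEF2 element was found in that of Klf2 alone, starting at position -118 from the gene start, and in 0.557% of 32851 mouse promoters of this length. The core TGACG stood in the promoters of Klf2, Klf3, Klf4, Klf9 and Klf13, and in 20.8% of all promoters. The AP-1 site was found in the promoter of Klf9 alone, and in 7.81% of all, and the CArG box bound by serum response factor in none of the 7, against 1.63% of all. The GC box GGGCGG, a form of the sequence that the family itself binds, had 6 places in the Klf3 promoter, 4 in Klf4, 3 in Klf13, 2 in Klf2 and 1 each in Klf6 and Klf7, and was present in 35.7% of all promoters. These matches describe letters in this window and do not show binding.

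After filtering, 4340, 4667 and 2257 cells remained in WT 1, WT 2 and the deficient library, with median depths of 3384.5, 3338 and 2824 UMIs. The class II chain genes H2-Aa, H2-Ab1 and H2-Eb1 were read as a check of the genotype labels, over all barcodes before this filter. They had 3016, 3831 and 2624 UMIs in WT 1 and 3532, 4462 and 2939 in WT 2. None of them was listed for the deficient library. Cells were assigned to classes by summed marker UMIs, with none of the members among the markers. Microglia numbered 3904, 4406 and 2198 in WT 1, WT 2 and the deficient library, neutrophils 277, 133 and 18, monocytes 50, 38 and 22, and border macrophages (of the meninges and vessels) 34, 29 and 10. Levels of genes are given as CPM, UMIs per 1000000 UMIs of the genes that the tables have in common, and summed levels of marker and immediate early lists per 1000000 UMIs of all genes in the library's table. Of 9 markers of T and NK cells 2 were listed in each WT table, and summed to 0.571 and 0.441 CPM in the microglia of WT 1 and WT 2, while 0 of the 9 were listed in the deficient table and so were not measured there. The libraries shared between 13 and 30 cell barcodes.

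Microglia were divided by an immediate early list of 8 genes (Fos, Fosb, Egr1, Ier2, Dusp1, Nr4a1, Atf3 and Btg2) after each cell had been thinned to 1000 UMIs: cells with 0 UMIs of the list are called microglia without immediate early genes, and cells with 5 or more microglia with them. The libraries differed in the share of the latter, which was 30.3% in WT 1, 16.3% in WT 2 and 10.1% in the deficient library, while 20.99%, 34.2% and 57.8% of microglia were without. Over all microglia the list summed to 7781, 5023 and 2700 CPM. Within the states the libraries were closer at the upper end: the list summed to 19677, 20473 and 17783 CPM in microglia with immediate early genes, and to 715.05, 498.1 and 240.2 CPM in those without (cells with 0 UMIs after thinning can hold some before it). The members are therefore given over all microglia and within both states. The part of the remaining difference of the list in the levels within a state was not tested.

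Klf2, best known for keeping endothelial and T cells quiescent, was lower in the deficient library by the largest factor among the 8 members. In all microglia of WT 1, WT 2 and the deficient library it stood at 1565, 1087 and 22.4 CPM, from 21914, 17222 and 144 UMIs. The WT libraries averaged 1326 ± 338 CPM (SD, n = 2). The WT mean was 59.1-fold the deficient level, against a ratio of 1.44 between the WT libraries. The difference on the log2 scale, deficient minus WT, was -5.87 (SE 0.22, adjusted p = 4.28e-15, edgeR).

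A gap was present in each state, though smaller than over all microglia: the WT mean was 37.1-fold the deficient level without and 32.3-fold with immediate early genes. In microglia without immediate early genes Klf2 stood at 348.3, 251.0 and 8.07 CPM in WT 1, WT 2 and the deficient library, the last from 29 UMIs (exact Poisson 95% interval 5.41 to 11.6 CPM). In microglia with immediate early genes it stood at 3660, 4211 and 121.8 CPM, the last from 94 UMIs (98.4 to 149.02 CPM). The deficient library thus lay under both WT libraries in both states, and its level with immediate early genes was still below the WT level without them. The edgeR log2 fold changes were -5.17 (SE 0.21, adjusted p = 1.73e-62) without and -4.90 (SE 0.18, adjusted p = 1.66e-09) with immediate early genes. Exact intervals of counts and shares cover counting error only.

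**Figure D1:**
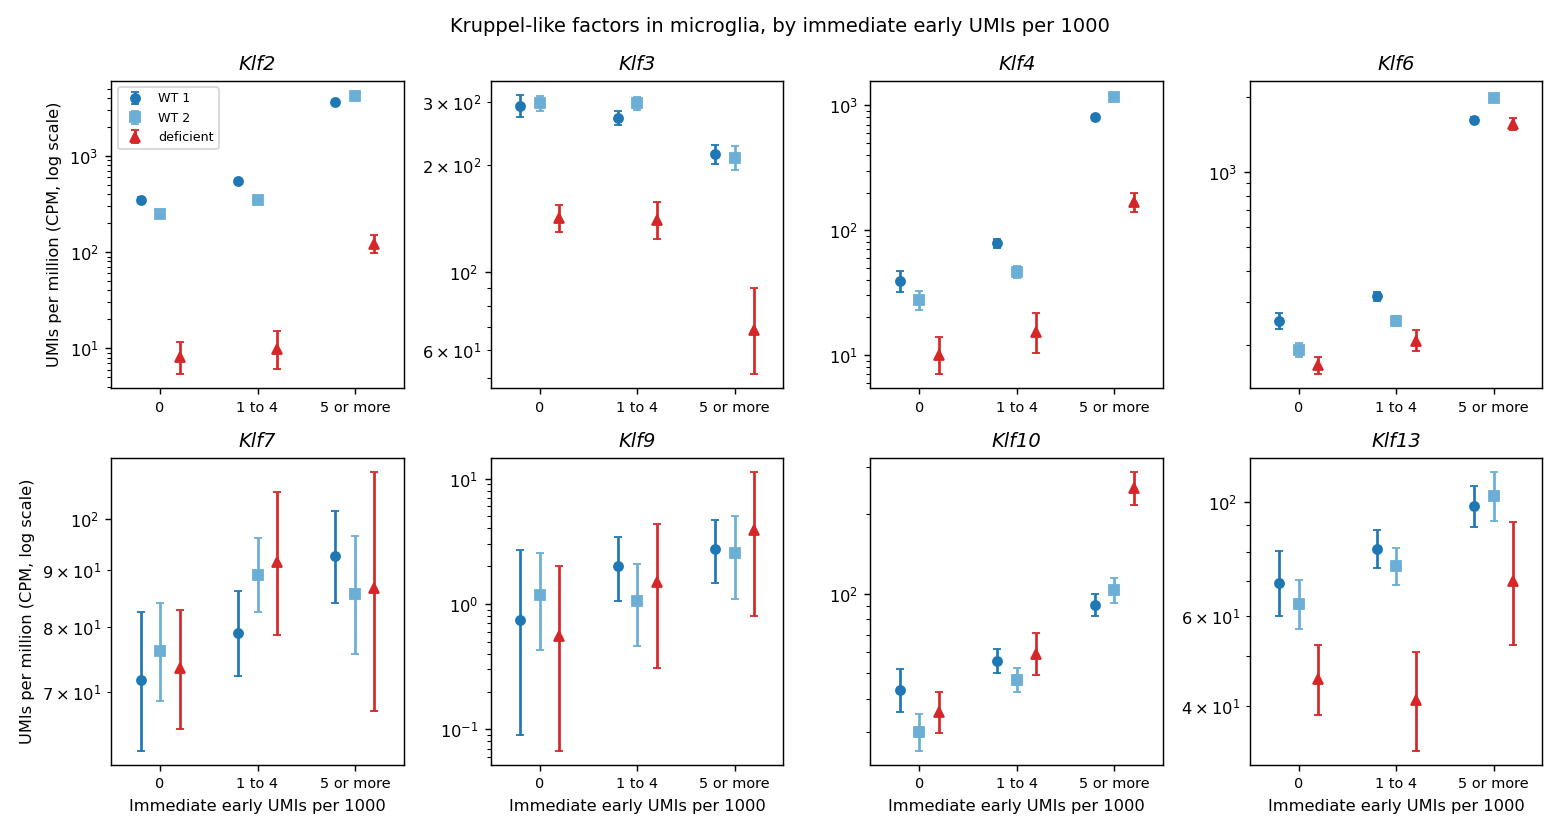
Level of the 8 members (CPM, log axis) in microglia by immediate early UMIs per 1000, 1 panel a gene, 1 point a library with its exact Poisson 95% interval. The middle position holds the microglia between them, with 1 to 4 immediate early UMIs. Klf2, Klf3 and Klf4 of the deficient library lie under both WT libraries at all 3 positions, and Klf10 of the deficient library rises to 251.3 CPM.

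Counted by cells, Klf2 was found in 57.6% of WT 1 microglia, 46.1% of WT 2 microglia and 4.19% of deficient microglia (exact Clopper-Pearson 95% interval 3.39 to 5.11). After thinning to 1000 UMIs the shares were 37.5%, 27.2% and 1.49%, with 49, 53 and 44 cells too shallow to be thinned. Single cells reached 139 and 123 Klf2 UMIs in the WT libraries and 8 in the deficient library. Klf2 is expressed in all the classes of this gate, so that none gave a level of free RNA to set beside these shares.

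Depth, other cells and base composition moved with the libraries as follows. Neutrophil markers (12 of 12 listed in both WT tables and 11 of 12 in the deficient table) summed to 1185, 636.3 and 50.2 CPM in the microglia of WT 1, WT 2 and the deficient library, and the border macrophage markers (10, 11 and 6 of 11 listed) to 198.3, 203.5 and 236.6 CPM. Their part in the differences of the members was not tested beyond the following. In microglia with 0 UMIs of any neutrophil, monocyte or border macrophage marker (81, 294 and 910 cells), the Klf2 log2 fold change was -5.26, and that of Klf4 -2.98. The longest coding transcript of Klf2 is 61.6% GC, above that of 98.4% of the genes tested, and among 180 tested genes at or above that value 27.2% were called lower, against 7.65% of the 10985 with a value. Over the last 500 bases, where 3′ reads fall, Klf2 is 45.4% GC, and 6.76% of tested genes at or above that value were called lower. The part of base composition in the Klf2 difference was not tested.

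The Klf2 gene lies at chr8:72319033-72321656 on the plus strand (mm10), with 3 exons and no overlapping annotated gene. The nearest tested genes were looked up after the Klf2 values had been seen. Eps15l1 starts 19.3 kb away and stood at 37.3, 35.1 and 35.8 CPM in WT 1, WT 2 and the deficient library, a log2 difference of -0.0038 (edgeR adjusted p = 0.991). Gm10282, 13.8 kb to the other side, stood at 4.71, 4.10 and 3.43 CPM (adjusted p = 0.633, edgeR).

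Klf4, a factor of monocyte differentiation and one of the classical reprogramming genes, was also lower in the deficient library. Over all microglia it stood at 320.03, 264.8 and 30.5 CPM in WT 1, WT 2 and the deficient library, the WT mean being 9.58-fold the deficient level. The log2 difference was -3.25 (SE 0.14, adjusted p = 3.52e-14, edgeR). The gap was smaller within each state. Without immediate early genes Klf4 stood at 38.8, 27.3 and 10.02 CPM (log2 fold change -1.64, SE 0.24, adjusted p = 4.70e-09, edgeR). With them it stood at 812.6, 1172 and 167.1 CPM (-2.45, SE 0.23, adjusted p = 1.95e-05, edgeR). In microglia without immediate early genes the early list itself still summed to 715.05, 498.1 and 240.2 CPM in WT 1, WT 2 and the deficient library. Its part in the Klf4 difference there was not tested. Klf4 of the deficient library lay under both WT libraries in each state. With 1 library against 2 this alone says little. Klf7, which did not pass, also lay outside both WT libraries over all microglia (81.01 against 82.4 and 84.04 CPM).

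Klf3, a repressor that works through the corepressor CtBP, was lower over all microglia and in both states. It stood at 256.3, 280.2 and 131.6 CPM in all microglia of WT 1, WT 2 and the deficient library (-1.02, SE 0.11, adjusted p = 1.47e-07, edgeR). Without immediate early genes the levels were 293.6, 298.2 and 141.4 CPM (-1.04, SE 0.13, adjusted p = 2.20e-12, edgeR). With immediate early genes they were 214.6, 208.7 and 68.7 CPM (-1.50, SE 0.19, adjusted p = 0.00028, edgeR). The ratio of WT 1 to WT 2 lay between 0.915 and 1.03 in these sums. Klf3 overlaps the annotated transcripts C230096K16Rik on its own strand and Gm20033 on the opposite strand, and how the authors' counting treated them is not given in the sources used here.

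Klf13, known as a regulator of chemokine expression in T cells, differed less. It stood at 84.7, 76.8 and 46.7 CPM in all microglia (-0.78, SE 0.10, adjusted p = 5.81e-06, edgeR). Without immediate early genes it stood at 69.5, 63.2 and 45.1 CPM (-0.52, SE 0.15, adjusted p = 0.00843, edgeR). With immediate early genes, at 98.1, 102.8 and 69.96 CPM, it did not pass (-0.40, SE 0.20, adjusted p = 0.426, edgeR). The all-microglia call was lost in the microglia free of other markers (-0.44, adjusted p = 0.620, edgeR), and the call without immediate early genes with DESeq2 (-0.53, adjusted p = 0.9998) and after thinning (-0.31, edgeR adjusted p = 0.631). With a wider immediate early list the second call was lost (-0.57, adjusted p = 0.26, edgeR) and the difference with immediate early genes passed (-0.64, adjusted p = 0.00252, edgeR).

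Klf6, an early response gene that favours inflammatory activation of macrophages, was lower over all microglia but was not called lower in either state. Over all microglia it stood at 747.0, 579.7 and 348.9 CPM (-0.92, SE 0.13, adjusted p = 1.69e-05, edgeR). DESeq2 gave -0.91 with an adjusted p of 0.0515. Without immediate early genes it stood at 251.0, 191.5 and 166.2 CPM (-0.37, 95% interval -0.62 to -0.12, adjusted p = 0.0559, edgeR), and passed where cells with 1 early UMI were added (-0.43, adjusted p = 0.00209, edgeR) or low counts were not filtered (-0.37, adjusted p = 0.0438, edgeR). With immediate early genes it stood at 1621, 1990 and 1564 CPM (-0.09, 95% interval -0.37 to 0.19, adjusted p = 0.866, edgeR). The deficient library held the lowest value in both states, 1.33-fold and 1.15-fold under the WT mean. The interval with immediate early genes did not reach the -0.92 seen over all microglia, but it carries no spread between deficient animals.

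Klf10, named for its rapid induction by TGF-beta, went the other way in 1 state. Over all microglia it stood at 65.1, 52.8 and 69.2 CPM (0.24, SE 0.11, adjusted p = 0.210, edgeR), and without immediate early genes at 43.3, 30.1 and 35.6 CPM (0.04, SE 0.17, adjusted p = 0.951, edgeR), so no difference passed in either. With immediate early genes it stood at 90.5, 103.1 and 251.3 CPM, the last from 194 UMIs. There the deficient library was above both WT libraries, by 1.5 on the log2 scale (SE 0.16, adjusted p = 6.86e-05, edgeR). Klf10 was found in 22.6% and 24.6% of such WT cells and in 38.2% of such deficient cells, and in 7.88%, 9.04% and 17.5% after thinning.

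Klf7, a factor of neuronal outgrowth, showed no difference that passed. It stood at 82.4, 84.04 and 81.01 CPM in all microglia, with a log2 difference of -0.03 (95% interval -0.21 to 0.15, adjusted p = 0.909, edgeR). It stood at 71.7, 76.1 and 73.5 CPM without immediate early genes (0.01, adjusted p = 0.990, edgeR), and with them at 92.6, 85.6 and 86.8 CPM (0.08, adjusted p = 0.927, edgeR). Klf9, a glucocorticoid-induced member, was barely detected, with 28, 22 and 8 UMIs in the microglia of WT 1, WT 2 and the deficient library. Its log2 difference of -0.42 had a 95% interval from -1.53 to 0.69 (adjusted p = 0.749, edgeR), and it was filtered out in microglia without immediate early genes. With immediate early genes it had 13, 8 and 3 UMIs, or 2.74, 2.54 and 3.89 CPM (0.67, adjusted p = 0.876, edgeR).

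**Figure D2:**
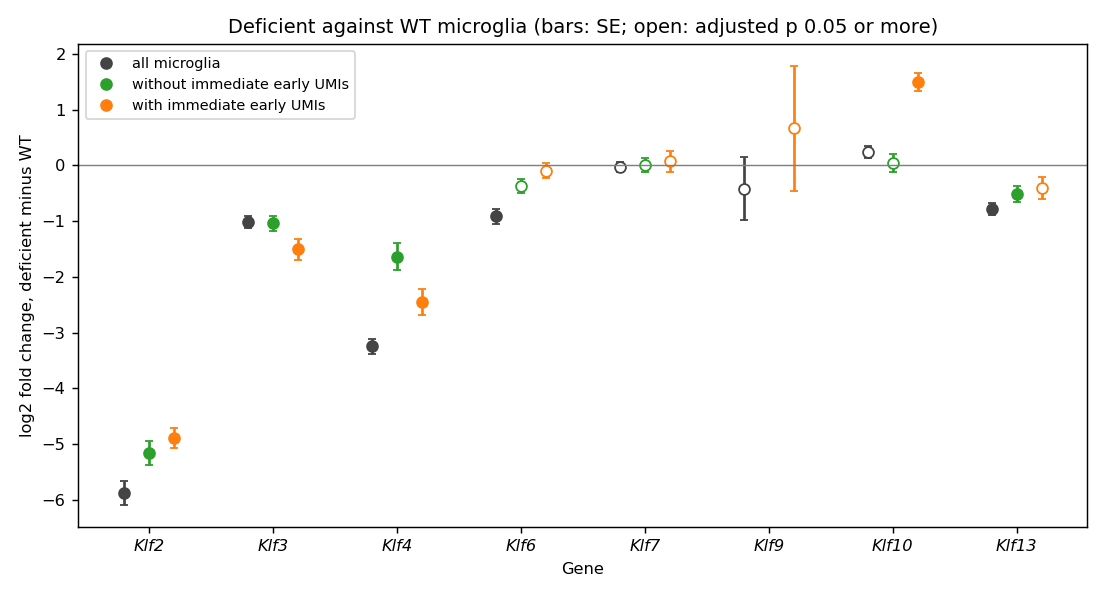
edgeR log2 fold change (deficient minus WT) of each member over all microglia and within each state, with bars of 1 SE on each side; open points did not pass. Klf2 lies between -5.87 and -4.90 in the 3 sets of cells, Klf4 moves from -3.25 over all microglia to -1.64 without immediate early genes, and Klf6 moves from -0.92 to -0.09 with them.

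Over all microglia, then, 5 of the 8 members were called lower in the deficient library and 0 higher, where 7.27% of the 11884 genes tested were called lower and 2.2% higher. Without immediate early genes 4 of the 7 members tested were called lower and 0 higher, against 5.54% and 1.49% of the 10567 genes tested. With immediate early genes 3 of 8 were called lower and 1 higher, against 2.4% and 1.38% of 10294 genes. The members were chosen with earlier results of these data known, so these counts do not test whether the family stands out. The medians of the members were -0.85, -0.52 and -0.25 in the 3 sets, and those of all genes tested -0.0022, 2.6e-05 and -0.015. The spread behind all these p-values comes from the WT pair, with 1 residual degree of freedom. edgeR draws the spread of each gene towards that of all genes tested, so small p-values do not measure the gene's own WT spread. These p-values also take the lone deficient library to vary like WT.

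Within every library the members were then compared between the 2 states. In the fit over the 3 libraries Klf4, Klf2 and Klf6 were higher in microglia with immediate early genes by 4.98, 3.93 and 3.29 on the log2 scale and Klf10 by 2.07, while Klf13 and Klf7 were higher by less and Klf3 was lower. The single libraries WT 1, WT 2 and deficient gave 4.54, 5.60 and 4.31 for Klf4, 3.55, 4.24 and 4.16 for Klf2, 2.85, 3.55 and 3.48 for Klf6 and 1.22, 1.95 and 3.07 for Klf10. Of the 7 members tested, 6 were called higher and 1 lower, where 10.9% of 10329 genes were called higher and 6.12% lower. None of the members is in the list that defined the states.

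Klf4 rose from 38.8 to 812.6 CPM in WT 1, from 27.3 to 1172 CPM in WT 2 and from 10.02 to 167.1 CPM in the deficient library (log2 fold change 4.98, SE 0.19, adjusted p = 3.42e-10, edgeR with the library as a block). Klf2 rose from 348.3 to 3660 CPM, from 251.0 to 4211 CPM and from 8.07 to 121.8 CPM (3.93, SE 0.14, adjusted p = 2.32e-10, edgeR). Klf6 rose from 251.0 to 1621 CPM, from 191.5 to 1990 CPM and from 166.2 to 1564 CPM (3.29, SE 0.13, adjusted p = 4.46e-10, edgeR). The rise was thus present in all 3 libraries for these genes, Klf2 of the deficient library included. The promoters of Klf2 and Klf4 hold the core TGACG and that of Klf6 does not. It also lies in those of Klf3, which was lower with immediate early genes, and of Klf13, which rose by less. A link of the core with the rise was not tested.

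Klf10 rose from 43.3 to 90.5 CPM, from 30.1 to 103.1 CPM and from 35.6 to 251.3 CPM in WT 1, WT 2 and the deficient library (2.07, SE 0.22, adjusted p = 1.15e-05, edgeR). Klf13 rose by 0.79 (SE 0.09, adjusted p = 2.86e-05, edgeR) and Klf7 by 0.44 (SE 0.09, adjusted p = 0.00323, edgeR), each higher in 3 of 3 libraries. Klf3 fell by 0.40 (SE 0.09, adjusted p = 0.00929, edgeR), and was lower in 3 of 3 libraries, with library values of -0.30, -0.34 and -0.79. DESeq2 made neither the Klf3 call (adjusted p = 0.069) nor that of Klf7 (adjusted p = 0.141), and the Klf7 call was lost after thinning (edgeR adjusted p = 0.119). Scaling by plain totals moved the median of all genes to -0.19 and the split of calls from 1126 higher and 632 lower to 755 and 2443, and left all 7 members on their side of 0.

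Across finer bins of immediate early UMIs per 1000, each holding at least 71 cells of each library, Klf2 climbed in WT 1 through 348.3, 458.6, 598.6, 1003, 2664 and 6538 CPM, from 0 UMIs to 20 or more, and in WT 2 from 251.0 to 7193 CPM. In the deficient library it passed from 8.07 and 7.76 through 13.6, 41.6 and 54.2 to 271.2 CPM over the same bins. The highest deficient bin thus stood below the lowest bin of WT 1, and just above that of WT 2 at 251.0 CPM. Klf4 climbed to 1510 and 2038 CPM in the WT libraries and to 294.8 CPM in the deficient library. Klf6 of the deficient library stood above both WT libraries in the bin of 5 to 9 UMIs, at 851.9 CPM against 544.4 and 561.7, and between them in the next bin, at 1058 CPM against 1042 and 1327. It reached 2883, 3226 and 2787 CPM in the highest bin, where the deficient library was again lowest. Klf3 fell over the same bins, from 293.6 to 193.9 CPM in WT 1, from 298.2 to 192.9 CPM in WT 2 and from 141.4 to 58.97 CPM in the deficient library.

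**Figure D3:**
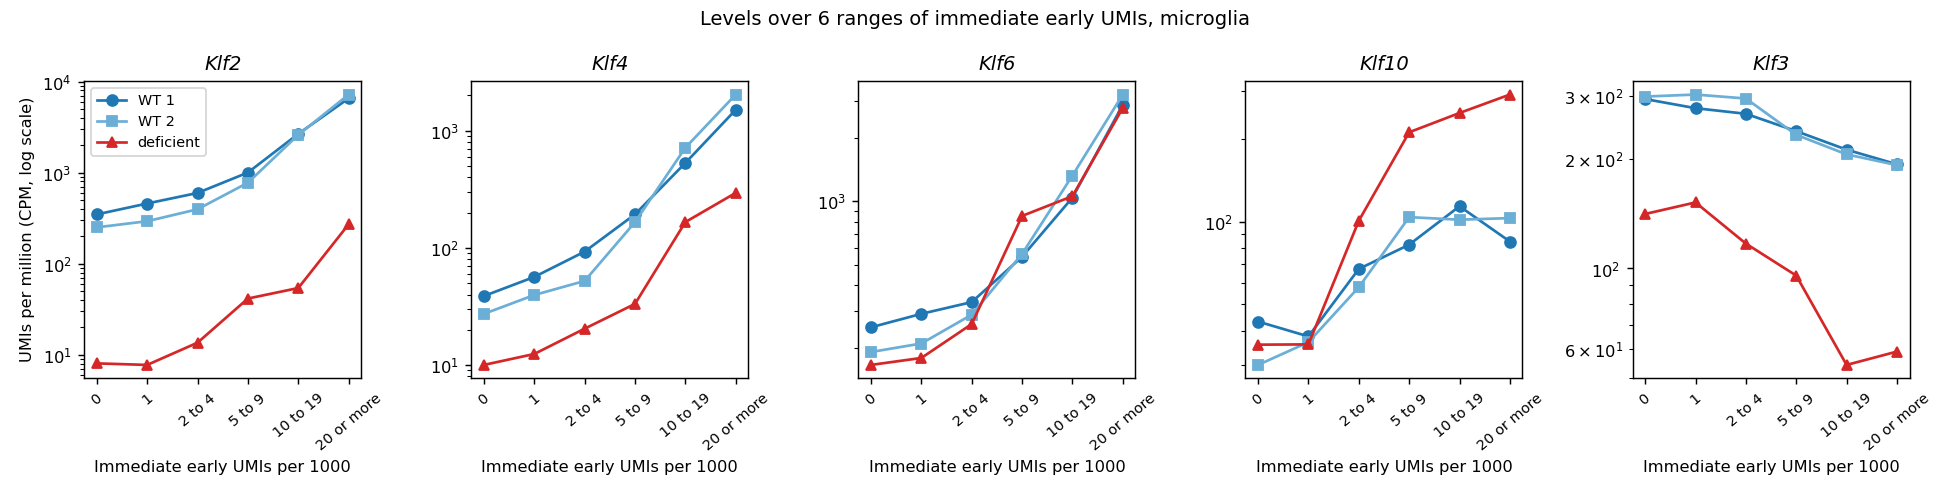
Level of Klf2, Klf4, Klf6, Klf3 and Klf10 (CPM, log axis) over microglia binned by immediate early UMIs per 1000 UMIs of the cell, 1 line a library. Klf2 and Klf4 are higher in the last bin than in the first in all 3 libraries, with the deficient line below, the Klf6 line of the deficient library lies above WT at 5 to 9 UMIs and below it in the last bin, and Klf10 of the deficient library lies above WT from 2 to 4 UMIs on.

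Whether the rise with immediate early genes itself differed between the genotypes was tested as an interaction with 1 residual degree of freedom, and 0 of the 8 members passed, where edgeR called 0.215% of 10720 genes higher and 0.0% lower. At an unadjusted p under 0.05 there were 2 members, Klf10 and Klf3, and DESeq2 called 0. For Klf10, whose rise was largest in the deficient library, the difference was 1.45 (SE 0.28, edgeR adjusted p = 0.0788). It passed under 4 of the 7 other settings tried, with adjusted p between 0.00437 (edgeR, thinned cells) and 0.561 (DESeq2). For Klf2 the difference was 0.25 (95% interval -0.64 to 1.14, adjusted p = 0.947, edgeR). For Klf6 it was 0.27 (95% interval -0.18 to 0.72, adjusted p = 0.863, edgeR).

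The members were next read in the other myeloid cells of the gate, each class against microglia with the library as a block. Immediate early transcripts differed between the classes beside these levels: the list summed to 24465 and 18146 CPM in WT border macrophages, 5773 and 5488 CPM in WT monocytes and 2479 and 1593 CPM in WT neutrophils, against 7781 and 5023 CPM in WT microglia. The deficient library had 8072, 2242, 2208 and 2700 CPM in the same order. The class differences were also computed against microglia without immediate early genes, and are given so where they turned.

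Border macrophages were the class with the highest Klf6, at 3475, 2692 and 1959 CPM in WT 1, WT 2 and the deficient library, against 747.0, 579.7 and 348.9 CPM in microglia (log2 fold change 2.35, SE 0.28, adjusted p = 4.60e-11, edgeR). Klf4 stood there at 820.1, 923.4 and 118.7 CPM, above microglia in 3 of 3 libraries (1.73, SE 0.26, adjusted p = 9.34e-08, edgeR). Klf2 stood at 2604, 2309 and 89.05 CPM (1.19, SE 0.32, adjusted p = 0.00313, edgeR). In all 3 genes the class was above the whole microglia of its own library. Microglia with immediate early genes stood at 3660, 4211 and 121.8 CPM for Klf2 in WT 1, WT 2 and the deficient library, above border macrophages in each. For Klf4 they stood at 812.6, 1172 and 167.1 CPM, below border macrophages in WT 1 alone. For Klf6 they stood at 1621, 1990 and 1564 CPM, below border macrophages in each. The class was not tested against these microglia. Klf13 was also called higher (0.98, SE 0.33, adjusted p = 0.02, edgeR), and Klf3, Klf7 and Klf10 were not called. Thus 4 of 7 members tested were called higher and 0 lower, where 10.6% of 5836 genes were called higher and 11.7% lower. DESeq2 did not call Klf2 (adjusted p = 0.105), and without WT 2 neither Klf2 (adjusted p = 0.0785) nor Klf13 (adjusted p = 0.19) passed in edgeR. Klf13 did not pass without WT 1 (adjusted p = 0.517, edgeR) or without the filter on low counts (adjusted p = 0.0792, edgeR).

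Monocytes had the highest Klf13, at 343.1, 419.5 and 193.3 CPM in WT 1, WT 2 and the deficient library, and were above microglia in all 3 (2.29, SE 0.23, adjusted p = 1.70e-14, edgeR). Klf10 stood at 111.5, 162.9 and 167.6 CPM (1.29, SE 0.25, adjusted p = 7.34e-06, edgeR) and Klf4 at 366.0, 480.5 and 90.2 CPM (0.75, SE 0.26, adjusted p = 0.0101, edgeR). Klf7 was nearly absent, with 8.58, 24.4 and 25.8 CPM against 81.01 to 84.04 CPM in microglia (-2.23, SE 0.39, adjusted p = 1.06e-06, edgeR). Klf3 was lower at 134.4, 126.2 and 77.3 CPM (-0.88, SE 0.26, adjusted p = 0.00334, edgeR). In all, 3 of 7 members tested were called higher and 4 lower, against 26.0% and 28.7% of the 5836 genes. Klf9, left out by the filter on low counts, had 11, 3 and 1 UMIs in monocytes, or 31.4, 12.2 and 12.9 CPM.

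The other lower calls in monocytes turned with the reference. Klf2 stood at 511.8, 586.4 and 64.4 CPM, below all microglia by 0.84 (SE 0.34, adjusted p = 0.0303, edgeR), and Klf6 at 340.2, 321.7 and 322.2 CPM, below them by 0.67 (SE 0.29, adjusted p = 0.0453, edgeR). Against microglia without immediate early genes both were higher, by 1.23 for Klf2 (adjusted p = 0.000521, edgeR) and 0.79 for Klf6 (adjusted p = 0.0181, edgeR). Without WT 1 the differences of Klf2, Klf3 and Klf6 did not pass (adjusted p = 0.841, 0.102 and 0.409, edgeR), nor did they without WT 2 (0.442, 0.225 and 0.377), where that of Klf4 did not pass either (0.258). DESeq2 made no call for Klf2, Klf4 and Klf10 (adjusted p = 0.306, 0.149 and 0.0537).

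Neutrophils were the class with almost no Klf4. It had 8 UMIs in 277 cells of WT 1, 2 UMIs in 133 cells of WT 2 and 0 in 18 cells of the deficient library, or 6.60 and 3.001 CPM and a level of up to 60.8 CPM (3 UMIs) that 0 UMIs allow. The log2 fold change against microglia was -4.36 (SE 0.43, adjusted p = 3.30e-15, edgeR). Against microglia without immediate early genes it was -1.32 (adjusted p = 0.0186, edgeR). Klf4 was found in 2.53% of WT 1 neutrophils at a median depth of 2874 UMIs and in 25.1% of WT 1 microglia at 3379.5 UMIs, or 0.755% and 13.6% after thinning.

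Other members in neutrophils depended on the scaling. Neutrophil markers alone made up 464825, 505465 and 471157 CPM of their sums. With plain totals the median of all genes moved from -0.13 to -1.54 and the calls from 1799 higher and 1986 lower to 752 and 4249. Klf13, at 126.2, 117.0 and 121.5 CPM, was higher under both (1.98 with TMM, SE 0.24, adjusted p = 1.65e-11, edgeR, and 0.57 with plain totals). Klf7 was called higher with TMM (1.31, SE 0.21, adjusted p = 6.00e-08, edgeR) but stood at -0.10 with plain totals, its levels of 72.6, 88.5 and 101.3 CPM lying close to those of microglia. Klf2, at 435.5, 339.1 and 60.8 CPM, and Klf6, at 159.2, 133.6 and 243.1 CPM, did not pass with TMM (-0.13 and -0.58) and were called lower with plain totals (-1.60 and -1.94), but higher against microglia without immediate early genes (1.95 and 0.88, TMM). With TMM 1 of 7 members tested was called lower and 2 higher, against 34.0% and 30.8% of the genes.

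**Figure D4:**
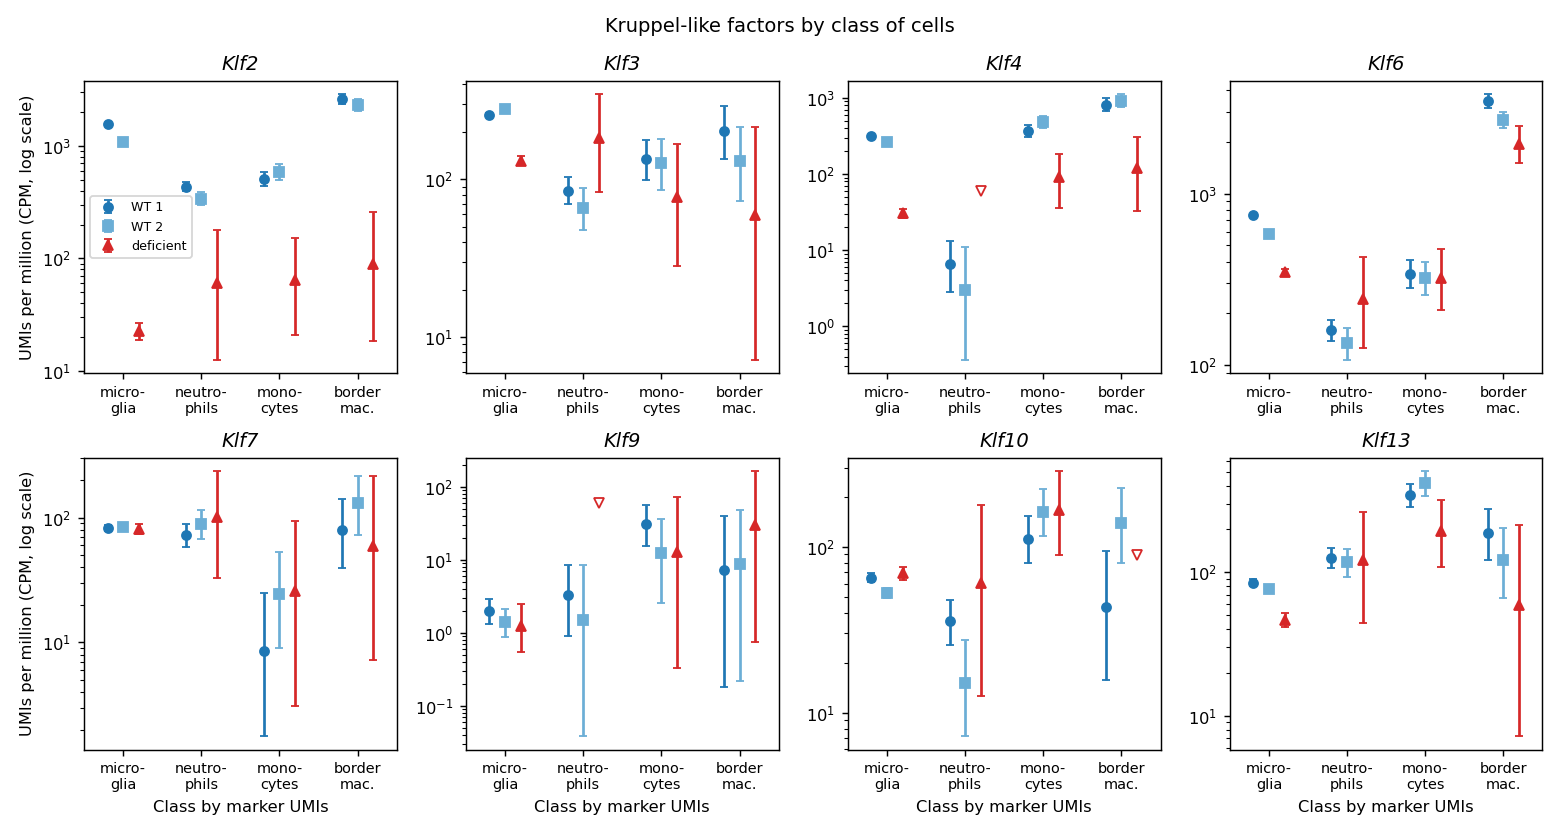
Level of the 8 members (CPM, log axis) in microglia, neutrophils, monocytes and border macrophages, 1 point a library with its exact Poisson 95% interval, and an open downward triangle at the level of 3 UMIs where a sum held 0. Klf2 and Klf4 of the deficient library lie under WT in all 4 classes, apart from Klf4 in neutrophils, where all 3 libraries are at or near 0.

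Klf2 of the deficient library was also low in the other classes. It had 3 UMIs in neutrophils (60.8 CPM, exact Poisson 95% interval 12.5 to 177.6), 5 in monocytes (64.4 CPM, 20.9 to 150.4) and 3 in border macrophages (89.05 CPM, 18.4 to 260.2). Each interval lay below both WT levels of its class, the lowest being 339.1, 511.8 and 2309 CPM. Klf4 had 7 UMIs in deficient monocytes (90.2 CPM, 36.3 to 185.9) and 4 in deficient border macrophages (118.7 CPM, 32.4 to 304.0), again below WT. Deficient monocytes were also shallower, with a median of 2408.5 UMIs against 6974.5 and 7321.5 in WT. The make-up of the class differed too. Non-classical monocyte markers had a median of 27.5 per 10000 UMIs in deficient monocytes, against 1.56 and 2.63 in WT 1 and WT 2. Classical markers had 53.4 against 89.6 and 79.5. The parts of depth and of make-up were not tested. These cells were too few for a test between genotypes, and the intervals carry no spread between animals.

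The other genes of the pathway were taken from lists of names. Some are named below for their change rather than their level, and were picked after their values were seen. These are Klf16, Ctbp1, Ctbp2, Foxo1, Wwp1, S1pr1, Cdkn1c, Slfn2, Ddit4 and Errfi1. These lists too were chosen with earlier results of these data known. Over all microglia their counts stand against the 7.27% of genes called lower and 2.2% called higher. Without immediate early genes they stand against 5.54% lower and 1.49% higher, and with them against 2.4% and 1.38%. Counts of 1 or 2 genes are not read as a result about a list. Of 13 other Kruppel-like and Sp genes 7 could be tested in all microglia, and 2 were called lower in the deficient library and 0 higher. Sp3, a widely expressed factor for GC boxes, stood at 73.1, 69.6 and 51.7 CPM (-0.45, SE 0.10, adjusted p = 0.00248, edgeR) and Klf16 at 10.3, 11.5 and 3.89 CPM (-1.47, SE 0.27, adjusted p = 0.000372, edgeR). Within the states Sp3 passed without immediate early genes (-0.45, adjusted p = 0.0260, edgeR) and not with them (-0.39, adjusted p = 0.537), and Klf16 in neither (adjusted p = 0.106 and 0.413, edgeR). That made 1 of 6 genes tested lower without and 0 of 7 with immediate early genes by edgeR, where 0 of the 7 had an unadjusted p under 0.05. DESeq2 called 0 genes of this list in any of the 3 sets, though with immediate early genes it gave an adjusted p for only 1 of them. Sp1 and Sp2 did not pass over all microglia (-0.20 and -0.37). The median of the list was -0.45, against -0.0022 over all genes tested.

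Of 21 upstream factors and cofactors 3 were called lower and 0 higher, with a median of -0.14. Mef2a and Mef2c, the factors that act on the MEF2 element of Klf2 in other cells, stood at 641.9, 655.4 and 610.3 CPM and at 1065, 1065 and 1137 CPM (-0.08 and 0.10, adjusted p = 0.761 and 0.674, edgeR), and Crebbp, a histone acetylase, did not pass either (0.06). Ctbp1, a gene of the CtBP corepressors with which Klf3 works, was lower in both states. It stood at 85.7, 87.8 and 14.3 CPM over all microglia (-2.59, SE 0.13, adjusted p = 2.93e-13, edgeR). Ctbp2, the other CtBP gene of the list, stood at 77.1, 77.3 and 69.6 CPM and did not pass (-0.14, adjusted p = 0.447, edgeR). Foxo1, an upstream factor of Klf2 in lymphocytes, stood at 26.3, 20.3 and 10.1 CPM (-1.19, SE 0.19, adjusted p = 8.75e-05, edgeR). Foxo1 was also lower without immediate early genes (-1.23, adjusted p = 0.000154, edgeR) but did not pass with them (-1.76, adjusted p = 0.0507). Wwp1, a ubiquitin ligase for Klf2, was lower by less (-0.46, adjusted p = 0.0345, edgeR), and passed in neither state (adjusted p = 0.406 and 0.536, edgeR). Within the states 2 of 20 tested were thus lower without and 1 of 20 with immediate early genes. DESeq2 called Ctbp1 lower in all 3 sets, Foxo1 over all microglia and not without immediate early genes (it gave no adjusted p for Foxo1 with them), and Wwp1 in none.

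Among 15 genes known as Klf2 or Klf4 targets in other cells, 10 could be tested, and 3 were called lower (S1pr1, Cdkn1a and Cdkn1c) and 1 higher (Slfn2). Of the 8 tested within the states, 1 was lower and 1 higher without immediate early genes, and 0 lower and 2 higher with them. Neither S1pr1 (adjusted p = 0.470 without and 0.350 with, edgeR) nor Cdkn1c (0.172 and 0.420) passed in a state. Cdkn1a, a cell cycle inhibitor, stood at 84.1, 86.3 and 45.8 CPM over all microglia (-0.89, SE 0.10, adjusted p = 5.73e-07, edgeR). It was lower without immediate early genes, at 22.2, 24.8 and 8.63 CPM (-1.44, adjusted p = 3.24e-06, edgeR), and at 189.4, 328.9 and 281.1 CPM did not pass with them (0.24, adjusted p = 0.796, edgeR). Txnip and Il6ra did not pass over all microglia (0.02 and -0.13). Txnip was higher with immediate early genes, at 688.7, 543.3 and 843.4 CPM (0.57, adjusted p = 0.0397, edgeR). Slfn2, a quiescence gene of lymphocytes, stood at 49.6, 53.7 and 80.1 CPM (0.64, SE 0.10, adjusted p = 3.54e-05, edgeR), and was called higher in both states (0.83 and 1.04, adjusted p = 2.49e-07 and 0.0494, edgeR). DESeq2 called Cdkn1a lower and Slfn2 higher over all microglia, and 0 genes of the list in either state. The median of the list was -0.37 over all microglia.

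Of 9 glucocorticoid-induced genes, listed because Klf9 responds to the hormone in other tissues, 8 were tested, and 4 were called lower and 1 higher over all microglia. There were 3 lower and 1 higher without immediate early genes. With them edgeR called 0 of the 8, where 4 had an unadjusted p under 0.05 and DESeq2 also called 0. Tsc22d3 was lower over all microglia (-0.47, SE 0.10, adjusted p = 0.00337, edgeR) but not within a state (0.30 and -0.19, adjusted p = 0.14 and 0.823, edgeR). Sgk1, a kinase, did not pass (-0.29). Ddit4 rose from 14.5 and 21.8 CPM to 65.9 CPM (1.86, SE 0.15, adjusted p = 3.11e-09, edgeR). It was also higher without immediate early genes, at 15.2, 19.7 and 69.03 CPM (1.957, adjusted p = 6.94e-24, edgeR). In microglia with immediate early genes it stood at 15.1, 22.5 and 33.7 CPM and did not pass (adjusted p = 0.201, edgeR). Errfi1 was lower over all microglia (-1.29, adjusted p = 8.57e-08, edgeR) and without immediate early genes (-0.84, adjusted p = 0.00321, edgeR). It did not pass with them (-0.88, adjusted p = 0.191, edgeR). Cdkn1a is in this list and in that of the targets, so its lower calls count in both. Dusp1 is in this list and also in the list that defined the states, so its values are not separate from them.

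Over the 18 sums of library and class or state (3 states of microglia and 3 other classes in each library), the levels of the members were set against those of 5405 other genes, as a description, since these sums share libraries and depth. Klf2 was most like Pnrc1 (Pearson r 0.96), Arf6 (0.92) and Jund (0.86). Klf4 was most like Rel (0.90), Hspa8 (0.90) and Pmaip1 (0.90), and Klf6 most like Egr1 (0.94), which is itself in the immediate early list, Ccnl1 (0.93) and Zcchc6 (0.93). Klf3 was most like Snx18 (0.90), Fbrsl1 (0.88) and Wwc2 (0.85), and Klf7 most like Slc40a1 (0.92), the iron exporter. Klf10 was most like Atg4d, Cmip and Jarid2 (each 0.91) and Klf13 most like Chmp4b (0.92), Gpr132 (0.91) and Id1 (0.90). Between members the highest r was that of Klf4 with Klf6 (0.77), followed by Klf2 with Klf4 (0.67), and the lowest that of Klf7 with Klf13 (-0.68).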

How the data were processed

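Each library had 1 deposited table of whole-number UMI counts for genes and cell barcodes, not normalized. The sorted cells went into a droplet kit for 3′ ends, per the labels' protocols. The submitters' processing notes name Cell Ranger 3.0, Seurat 2.2 and the build mm10; filters applied by the authors were not given in the sources used here. Genes missing from a table were taken as not measured there.

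The cells used had 500 or more UMIs, 200 or more genes and a mitochondrial share up to 10%. Classes were set by marker UMIs per 10000 of a cell, with limits chosen from the distributions of the marker UMIs: neutrophils had at least 100 of neutrophil and under 100 of microglia markers; border macrophages at least 10, and monocytes at least 20, of their own markers with under 100 of both other lists, the higher of the pair deciding; microglia at least 100 of their own, under 100 of neutrophil and under 20 of the other lists. Near the microglial limit, between 80 and 125, lay 23 and 19 WT cells and 9 deficient cells. No doublet caller was run; 75, 61 and 9 cells stayed unassigned, 63, 42 and 4 of them with markers of 2 classes.

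UMIs were summed per library and class, since cells are not replicates. The 11979 genes listed in all 3 tables were tested with edgeR 4.0.16 (R 4.3.3; quasi-likelihood, TMM, filterByExpr, Benjamini-Hochberg over all genes tested, threshold 0.05), with the library as a block where classes or states were compared. Classes with under 50 cells in a library were not tested between genotypes. Intervals of counts are exact Poisson, of shares exact Clopper-Pearson, and of log2 differences normal approximations at 95%. The fits were tested on simulated counts. Alternatives covered DESeq2 1.42.0, RLE size factors, no filter, stricter cells, thinning, other limits and lists, the reference microglia, and each library left out; plain library totals were added after the data had been seen. Positions are from GENCODE on mm10, promoters from RefSeq on GRCm38.p6. Genes named were the members, the 3 of each other list with the highest mean CPM, the 3 most like each member by Pearson r of log2(CPM + 1) among genes averaging 20 CPM or more, and those said to be picked after their values. The members and lists were chosen with earlier results of these data known. The libraries come from separate mice by the design text, so p-values between genotypes rest on 1 pair of WT mice. The spread of each gene was drawn towards that of all genes tested.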

Additional observations from a re-analysis of the deposited data

Results flagged for a closer look

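In 5 places the deficient library stood on the opposite side of 0 from both WT libraries when a class was set against the microglia of its own library, on the log2 scale after TMM. These differences between the genotypes were not tested, and each rests on few UMIs of the deficient library. Klf2 in neutrophils was at 2.22 in the deficient library (3 UMIs) and at -0.41 and -0.19 in WT 1 and WT 2. Klf3 in neutrophils was at 1.25 (9 UMIs) against -0.16 and -0.59, and Klf6 in neutrophils at 0.26 (12 UMIs) against -0.79 and -0.62. Klf2 in monocytes was at 1.55 (5 UMIs) against -1.47 and -0.72. For Klf2 the microglia that served as the reference were themselves at 22.4 CPM in the deficient library and at 1565 and 1087 CPM in WT. Klf7 in border macrophages was at -0.54 (2 UMIs) against 0.11 and 0.74. As plain ratios of CPM, Klf6 in neutrophils was at 0.697 in the deficient library and at 0.213 and 0.230 in WT 1 and WT 2, all below 1. Klf7 in border macrophages was at 0.733 against 0.961 and 1.55, so that WT 1 was below 1 as well. The opposite sides of Klf6 and Klf7 thus depended on TMM.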

How the results depend on the processing

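No paired analysis was possible because the deficient group is 1 library, whose label gives no replicate number, so that the groups share fewer than 2 numbers. The lower calls of Klf2, Klf3 and Klf4 in the deficient microglia held under all alternatives with a test, over all microglia and within each state. Without a WT library these differences are ratios with no test. Such a ratio was held against the spread of the same 2 WT libraries, and the main value lies near the middle of their ratios. It thus falls within that spread almost by construction, and is no measure of robustness. Where a direction turned or a count of members moved, the cause was not tested. For single members, 430 alternative values kept their side of the threshold or, without a test, lay within the WT spread, 16 passed in addition, 27 no longer passed, 12 without a test moved by more than that spread, and 22 with a test changed sign. Without a test 3 more changed sign: Klf7 without WT 1 (-0.051) and Klf10 without WT 2 (-0.28) in microglia without immediate early genes, and Klf7 without WT 2 (-0.093) in those with them. Klf7 changed sign between genotypes in microglia with 0 UMIs of other markers (0.12) and, with immediate early genes, under other limits (-0.21), and Klf10 without them after thinning (-0.23). The genotype difference of the immediate early effect turned for Klf2 after thinning (-0.40) and with the wider list (-0.18), for Klf7 with other limits (-0.27), plain totals (-0.024) and the wider list (-0.035), and for Klf13 with the wider list (-0.056). The 1 member passing there (Klf10) did so with other limits, thinning, plain totals and the wider list. Between the states, with minus without immediate early genes, DESeq2 called 0 members lower, against 1. In neutrophils 2 members were lower with DESeq2, 3 with RLE and 5 with plain totals, against 1, and 1 to 2 without 1 library; 5 were higher against microglia without immediate early genes and 1 with plain totals, against 2. Signs turned there for Klf2 (1.95) and Klf6 (0.88) with that reference, for Klf7 with plain totals (-0.10), and for Klf10 with DESeq2 (-0.14), RLE (-0.14) and plain totals (-1.13). Without 1 library Klf2 ranged from -0.30 to 0.27, Klf3 from -0.34 to 0.24 and Klf10 from -0.30 to 0.50. In monocytes 2 members were lower with the doubled minimum, with no filter and with the other reference, against 4, and 1 to 4 without 1 library; 5 were higher with the other reference, against 3, with Klf2 at 1.23 and Klf6 at 0.79. In border macrophages 2 to 4 members were higher without 1 library, and Klf10 ranged from -0.79 to 0.89. Over all genes, lower calls between genotypes ranged from 252 to 873 and higher from 39 to 266 in all microglia, 219 to 695 and 21 to 226 without, and 98 to 544 and 30 to 283 with immediate early genes. Between states they ranged from 61 to 2443 and 435 to 1459, and for the genotype difference of that effect from 0 to 8 and 17 to 47. They ranged from 1017 to 4249 and 752 to 2292 in neutrophils, 795 to 2278 and 837 to 1842 in monocytes, and 224 to 881 and 328 to 803 in border macrophages. Depth limits the deficient library outside microglia, where 3 UMIs came to between 38.7 and 89.05 CPM.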
